A study of Mus musculus with 10 samples.

Results

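p21 and 9 further genes of the cyclin-dependent kinase (CDK) inhibitor and p53 target groups were followed in aging mouse muscle: Cdkn1a, which encodes p21, Cdkn1b, Cdkn2a, Cdkn2b, Cdkn2c, Mdm2, Gadd45a, Gadd45b, Ccng1 and Sesn1. They were chosen by name, as 10 of the 37947 named genes in the table, with earlier results of these data known, and no threshold on their values was used. Together they had 30 transcript rows, and each gene was read at the row with the highest mean over all libraries. Of the 10 genes, 9 were above 0 in at least 1 library and 8 had a mean FPKM (reads scaled by transcript length and by library depth) of at least 1. The muscle was gastrocnemius of male C57BL/6 mice, and mRNA of 5 young mice of 6 months and 5 aged mice of 24 months was sequenced, with 1 library for each mouse. The labels name no treatment or altered allele in either group, so age is the only stated difference between them. Values below are log2 FPKM unless another unit is named, and a value of 0 stands for an FPKM under 1.

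CDK inhibitors bind cyclin-dependent kinases or their cyclins and hold cells before DNA replication. Members of the Cip/Kip family, p21 and p27 (Cdkn1b) among them, act on several cyclin-CDK complexes, whereas the INK4 family, encoded by Cdkn2a to Cdkn2d, binds CDK4 and CDK6. p53 is a transcription factor that is stabilized after DNA damage and other stress and turns on Cdkn1a, Mdm2, Gadd45a, Ccng1 and Sesn1, and Mdm2 in turn marks p53 for degradation. Muscle fibers are post-mitotic, and in them Cdkn1a and Gadd45a are also known to respond to denervation and disuse.

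The libraries held between 19886361 and 34554354 reads, and a 1 kb transcript at an FPKM of 1 was covered by 19.9 to 34.6 of them. The library of aged mouse 3 listed 29878 transcripts above 0 and that of young mouse 3 listed 35024, while the other 8 listed 38855 to 43296. Over all genes above 0 in at least 1 library, the median difference between aged and young was 0.08, and 65.5% of genes had a higher mean in aged muscle. The 6 fiber markers were abundant in every library, with a summed level of 16.41 to 16.90 on the log2(FPKM + 1) scale. In whole muscle, fewer cells of a type and less RNA per cell cannot be told apart.

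The 250 bases before annotated starts are shown first for the 3 genes whose age difference was largest among the members with a mean FPKM of at least 1, Cdkn1a, Gadd45a and Gadd45b. They come from RefSeq on GRCm38.p6 and are written 5′ to 3′ on the strand of the gene. Capitals mark matches, on either strand, to 6 motifs: the p53 half-site (3 purines, C, 2 bases that are A or T, G and 3 pyrimidines), the TATA box TATAAA, the GC box GGGCGG that binds Sp1, the CCAAT box, the cAMP response element TGACGTCA, and GTAAACA, which forkhead factors bind. Cdkn1a has 2 annotated starts.
Cdkn1a, start 1, chr17:29090729-29090978, plus strand: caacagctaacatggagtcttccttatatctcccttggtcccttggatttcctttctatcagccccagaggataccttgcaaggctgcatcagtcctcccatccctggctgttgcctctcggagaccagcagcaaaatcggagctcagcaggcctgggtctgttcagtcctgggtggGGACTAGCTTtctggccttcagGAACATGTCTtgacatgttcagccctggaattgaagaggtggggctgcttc
Cdkn1a, start 2, chr17:29093519-29093768, plus strand: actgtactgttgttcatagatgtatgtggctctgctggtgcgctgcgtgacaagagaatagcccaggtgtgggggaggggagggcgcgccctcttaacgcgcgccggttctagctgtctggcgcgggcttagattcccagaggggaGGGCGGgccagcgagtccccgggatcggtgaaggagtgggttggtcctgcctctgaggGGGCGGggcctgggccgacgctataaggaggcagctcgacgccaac
Gadd45a, chr6:67037408-67037657, minus strand: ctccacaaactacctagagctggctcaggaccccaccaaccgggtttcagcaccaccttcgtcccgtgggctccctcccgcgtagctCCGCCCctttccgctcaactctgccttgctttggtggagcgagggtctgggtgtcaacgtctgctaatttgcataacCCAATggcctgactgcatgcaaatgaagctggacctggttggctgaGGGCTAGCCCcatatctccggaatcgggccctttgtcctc
Gadd45b, chr10:80929841-80930090, plus strand: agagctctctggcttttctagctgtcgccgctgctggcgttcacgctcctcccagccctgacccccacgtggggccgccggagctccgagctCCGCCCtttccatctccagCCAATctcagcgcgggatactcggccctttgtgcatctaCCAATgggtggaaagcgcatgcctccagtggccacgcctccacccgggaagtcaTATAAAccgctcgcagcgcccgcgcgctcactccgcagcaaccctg

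Before its start 1, Cdkn1a held 2 p53 half-site matches, at -73 to -64 and at -51 to -42 from the start. Its start 2 held none and had 2 GGGCGG matches instead. Gadd45a held a half-site match at -40 to -31, next to a CCAAT and a GGGCGG match farther upstream. Gadd45b had no half-site match in this window but a TATAAA at -46 to -41. Single half-site matches were also found at -186 to -177 for Mdm2, at -185 to -176 for Ccng1 and at -173 to -164 before start 2 of Sesn1, so that 5 of the 14 annotated starts of the members had one, each in a different gene. Over all 32851 promoters of the same length, 7.13% held the half-site, 12.4% the TATA box, 32.7% the GC box, 33.8% the CCAAT box, 1.55% the cAMP response element and 3.17% the forkhead motif. These matches describe letters in the window and were not related to binding, which was not measured here.

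Cdkn1a was the member with the largest difference between the ages. Its level was 1.57, 2.56, 2.98, 1.53 and 2.71 in young mice 1 to 5 and 3.56, 3.44, 4.24, 3.99 and 5.53 in aged mice 1 to 5. The lowest aged library was above the highest young one, and aged mouse 5 was the highest of all. The mean rose from 2.27 ± 0.67 to 4.15 ± 0.84 (SD, n = 5 each), a difference of 1.88 (limma SE 0.44, 95% interval 0.91 to 2.85), or 3.68-fold (two-sided exact permutation test, p = 0.00794, the smallest that 5 against 5 can give). In FPKM, the level was 5.24 ± 2.22 in young and 20.7 ± 14.6 in aged muscle (SD, n = 5 each). The transcript had 116 to 520 reads in the young libraries and 467 to 1780 in the aged.

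Across the table the exact permutation test called 6.79% of genes higher and 1.25% lower in aged muscle, and the groups did not overlap for 1.78% of genes in the direction of higher aged values and for 0.287% in the other. With limma and Benjamini-Hochberg adjustment over all 38059 transcripts tested, Cdkn1a did not pass (adjusted p = 0.599). That fit called 3 transcripts higher, 0.00788% of those tested, and 0 lower, while 1482 were higher and 281 lower at an unadjusted p under 0.05. With the library number as a replicate block, limma called 0 higher, and the adjusted p of Cdkn1a was 0.422. Aged libraries exceeded the young library of the same number in 5 of 5 pairs, as under any pairing of groups that do not overlap. The difference within pairs ran from 0.87 to 2.81. The exact paired permutation test, which flips the signs of these 5 differences, gave p = 0.0625, the smallest that 5 pairs can give, so it could not pass for this or any other gene. When any 1 library was left out the difference stayed between 1.53 and 2.06, with exact permutation p between 0.00794 and 0.0159.

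**Figure D1:**
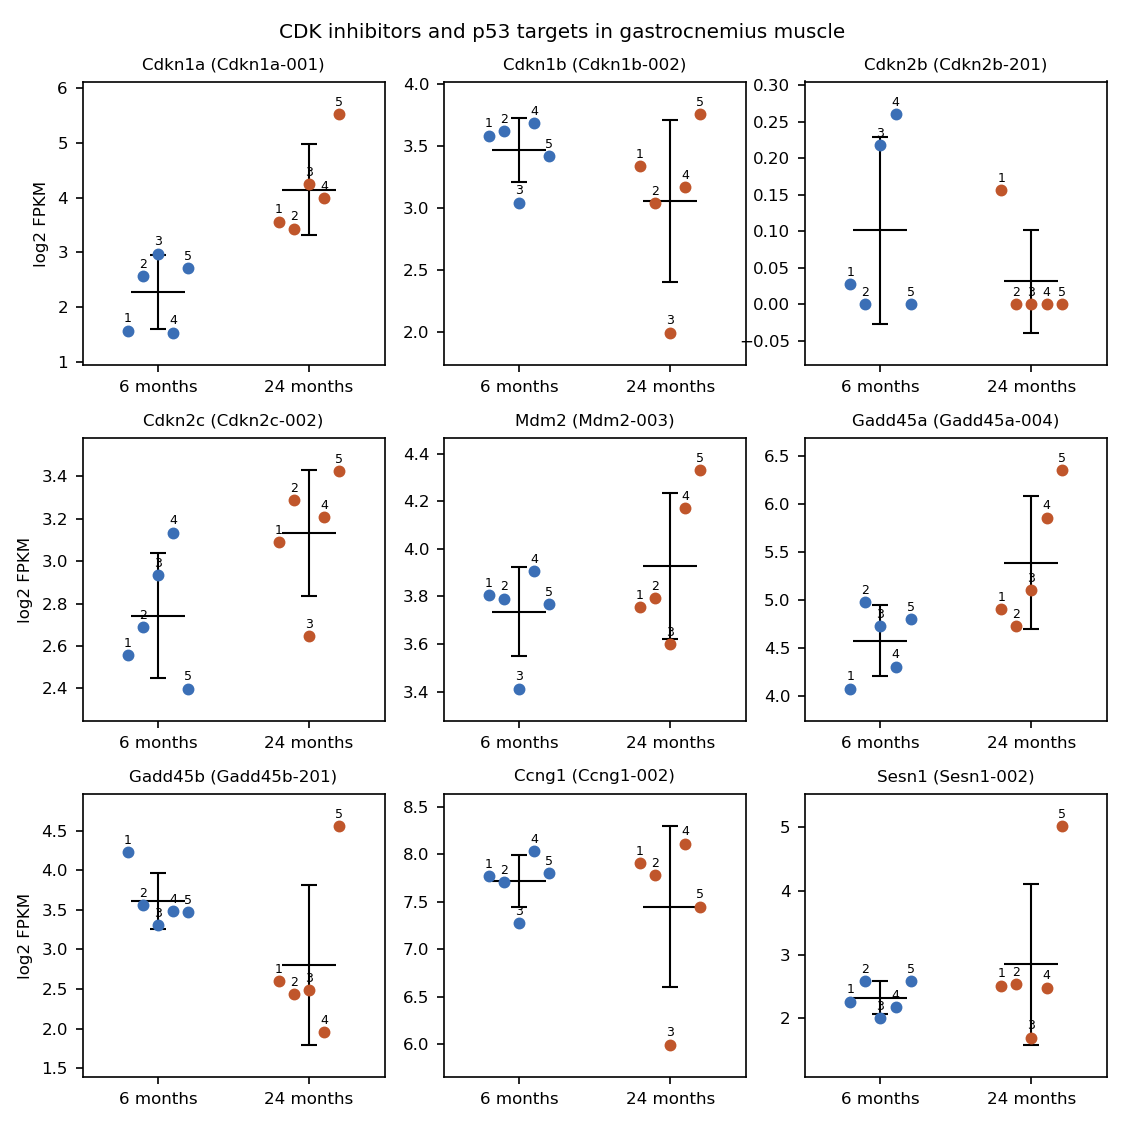
Levels of the 9 members above 0 in at least 1 library (y axes, log2 FPKM, each panel with its own range) in young mice of 6 months (blue) and aged mice of 24 months (orange). Points are libraries with their number, and bars are the mean ± SD of 5; in Cdkn1a the lowest aged value, 3.44, lies above the highest young value, 2.98, and aged mouse 5 stands apart in Sesn1 and Gadd45b.

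The Cdkn1a locus on mm10 spans chr17:29090979-29100722 on the plus strand, and 3 transcripts of it were listed. The row used above, Cdkn1a-001, was recovered as 1910 nt long, the shortest length that gave whole reads in every library. None of the recovered lengths of the 3 rows matched a reference transcript of the gene, and their read numbers rest on these lengths. The shorter rows Cdkn1a-002 (857 nt) and Cdkn1a-003 (748 nt) gave differences of 1.35 (two-sided exact permutation test, p = 0.0476) and 1.32 (p = 0.0556, exact). Aged mouse 3 separated the rows: it had 4.24 on Cdkn1a-001 but 1.52 and 1.64 on the short rows, within the range of the young libraries. In the other 9 libraries the reads of Cdkn1a-002 were 24.6 to 32.1% of those of Cdkn1a-001, and in aged mouse 3 they were 6.78% (78 of 1150 reads). The rows share exons, so these percentages are not shares of molecules. With the FPKM of all 3 rows summed, the difference was 1.64 (exact permutation p = 0.00794).

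**Figure D2:**
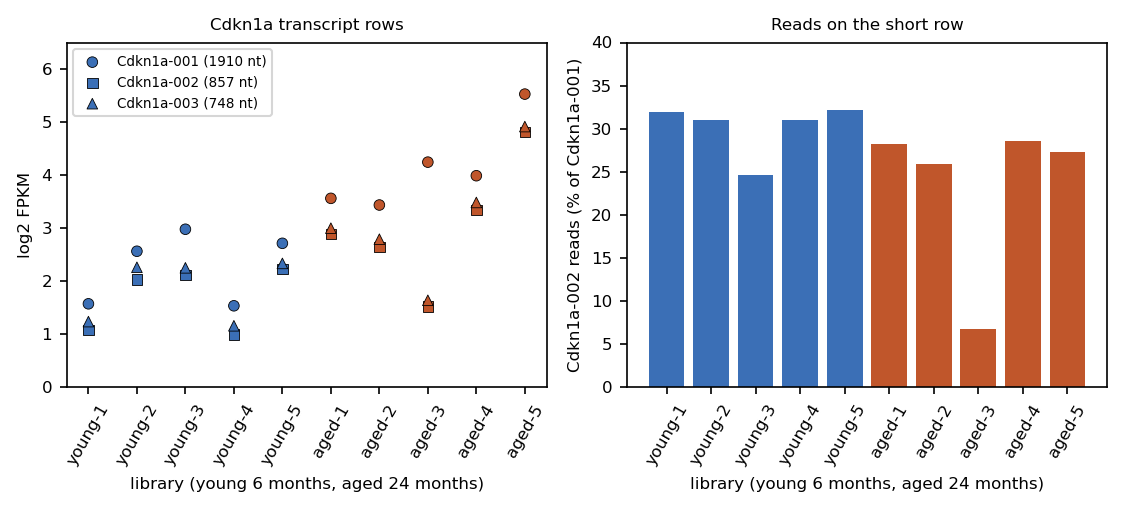
Left, log2 FPKM of the 3 Cdkn1a transcript rows in each library (circle Cdkn1a-001, square Cdkn1a-002, triangle Cdkn1a-003; blue young, orange aged). Right, reads of Cdkn1a-002 as a percent of those of Cdkn1a-001, with bars from 0; they are 24.6 to 32.1% in 9 libraries and 6.78% in aged mouse 3.

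Cdkn1b encodes p27, which keeps resting cells out of the cycle. It measured 3.58, 3.62, 3.04, 3.69 and 3.42 in young mice 1 to 5 and 3.33, 3.04, 1.99, 3.17 and 3.75 in aged mice 1 to 5. Aged mouse 3 was the lowest library and aged mouse 5 the highest, and the groups overlapped. The difference of -0.41 (95% interval -1.07 to 0.25) did not pass the exact permutation test (p = 0.230). Without aged mouse 5 it was -0.59, with an exact permutation p of 0.0476, and without aged mouse 3 it was -0.14, with an exact permutation p of 0.452.

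Of the INK4 members, Cdkn2a and Cdkn2b were at or near the floor of the table and Cdkn2c was not. Cdkn2a, whose overlapping reading frames encode p16 and p19ARF, was listed at 0 in every library on all 3 of its rows. Its neighbor Cdkn2b (p15) was between 0 and 0.26 in young and between 0 and 0.16 in aged muscle, above 0 in 4 of 10 libraries (exact permutation p = 0.286). Values this close to the floor of the table allow no statement on a change. Cdkn2c encodes p18, an INK4 protein that also accompanies the maturation of muscle cells. It had 2.56, 2.69, 2.93, 3.13 and 2.40 in young mice 1 to 5 and 3.09, 3.29, 2.65, 3.21 and 3.42 in aged mice 1 to 5. Of the aged libraries, 3 were above all young ones and the groups overlapped. The difference was 0.39 (95% interval -0.06 to 0.83, exact permutation p = 0.0714). It passed the exact test at 0.51 without aged mouse 3 (permutation p = 0.0317) and at 0.49 without young mouse 4 (permutation p = 0.0397).

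Of the other CDK inhibitor genes, Cdkn1c (p57) and Cdkn2d (p19INK4d) were present at levels near those of Cdkn1b, and Cdkn3 was listed at 0 throughout. Cdkn1c differed by 0.04 (95% interval -0.42 to 0.51, exact permutation p = 0.786) and Cdkn2d by 0.04 (95% interval -0.32 to 0.39, exact permutation p = 0.778). Their mean levels in aged muscle were 3.10 ± 0.32 and 3.16 ± 0.21 (SD, n = 5 each).

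Trp53, the gene of p53 itself, had a level of 2.05, 2.06, 2.15, 2.13 and 1.77 in young mice 1 to 5 and of 2.29, 2.38, 2.47, 2.48 and 2.12 in aged mice 1 to 5. Aged mouse 5 lay within the young range and the other 4 aged libraries above it. The difference was 0.32 (limma SE 0.14), or 1.25-fold, with p = 0.0238 by the exact permutation test and an adjusted p of 1.00 by limma, and aged was higher in 5 of 5 pairs. Mdm2, the ubiquitin ligase that p53 induces and that degrades p53, measured 3.81, 3.79, 3.41, 3.91 and 3.77 in young mice 1 to 5 and 3.76, 3.79, 3.60, 4.17 and 4.33 in aged mice 1 to 5. Only aged mice 4 and 5 exceeded all young libraries. Its difference of 0.19 (95% interval -0.21 to 0.60) did not pass the exact permutation test (p = 0.262).

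Mdm2 was listed with 9 transcripts, and 6 of them were at 0 in aged mouse 3 and 1 of them in young mouse 3, while in each of the other 8 libraries all 9 were above 0. On 5 of those 6 rows the mean was lower in aged muscle, by -0.38 to -0.04, none past the exact permutation test (p = 0.730 to 0.929). Mdm2-004 had 56.8 to 70.8% as many reads as Mdm2-001 in 8 libraries, 30.5% in young mouse 3 and a listing at 0 in aged mouse 3. Mdm4, a relative of Mdm2 that holds p53 inactive, was also at 0 in aged mouse 3 and differed by -0.03 (95% interval -0.87 to 0.81, exact permutation p = 0.929).

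Gadd45a encodes a small stress-induced protein that binds PCNA. It measured 4.08, 4.98, 4.73, 4.31 and 4.80 in young mice 1 to 5 and 4.91, 4.73, 5.11, 5.86 and 6.35 in aged mice 1 to 5. Aged mice 3, 4 and 5 were above all young libraries, and aged mice 1 and 2 lay within the young range. The mean went from 4.58 ± 0.37 to 5.39 ± 0.69 (SD, n = 5 each), a difference of 0.81 (limma SE 0.33), or 1.76-fold, which passed the exact permutation test (p = 0.0476) and not limma (adjusted p = 1.00). In FPKM the level was 24.6 ± 6.02 in young and 46.2 ± 23.4 in aged muscle (SD, n = 5 each). Aged was higher in 4 of 5 pairs (exact paired permutation p = 0.125). The exact permutation call was lost without any 1 of 7 of the libraries (young 1, 3, 4 or 5, aged 3, 4 or 5), and without aged mouse 5 the difference was 0.57 (exact permutation p = 0.0873). The 4 other rows of the gene gave 0.66 to 0.83.

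Gadd45b, its paralog, ran the other way in most animals. It measured 4.23, 3.56, 3.31, 3.49 and 3.47 in young mice 1 to 5 and 2.60, 2.44, 2.48, 1.95 and 4.56 in aged mice 1 to 5. The first 4 aged libraries were below every young one, whereas aged mouse 5 was above them all. With all libraries the difference was -0.81 (95% interval -1.77 to 0.16, exact permutation p = 0.167). Without aged mouse 5 it was -1.24, with an exact permutation p of 0.00794 for 5 young against 4 aged libraries. Reads for the gene numbered 279 to 486 in young libraries, 130 to 225 in aged mice 1 to 4 and 603 in aged mouse 5. The other paralog, Gadd45g, was the most abundant in FPKM and went from 6.44 ± 0.86 to 7.04 ± 0.61 (SD, n = 5 each; exact permutation p = 0.246).

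Ccng1 encodes cyclin G1, an atypical cyclin that p53 induces and that directs a phosphatase to Mdm2. It was the most abundant member per length, with a mean FPKM of 204 over the 10 libraries. Its level was 7.77, 7.71, 7.28, 8.03 and 7.80 in young mice 1 to 5 and 7.90, 7.78, 6.00, 8.11 and 7.45 in aged mice 1 to 5. Both libraries numbered 3 were the lowest of their group. The difference was -0.27 (95% interval -1.08 to 0.55, exact permutation p = 0.698), and without aged mouse 3 it turned to 0.09 (exact permutation p = 0.603).

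Sesn1 encodes sestrin 1, a stress protein that restrains the growth kinase mTORC1. It measured 2.26, 2.58, 2.00, 2.17 and 2.59 in young mice 1 to 5 and 2.52, 2.53, 1.70, 2.48 and 5.02 in aged mice 1 to 5. Aged mice 1 to 4 lay between 1.70 and 2.53, at the young level or under it, and aged mouse 5 was above the highest of the other 9 libraries by 2.43. The read number there was 1704, against 255 to 386 elsewhere. The difference of 0.53 (95% interval -0.62 to 1.68, exact permutation p = 0.571) became -0.01 without that library (exact permutation p = 0.929). Sesn2 and Sesn3, its paralogs, were each above 0 in 1 library.

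Across the 9 members above 0 in at least 1 library, 2 were higher and 0 lower in aged muscle by the exact permutation test, against 6.79% and 1.25% of all genes, and the median difference was 0.19 against 0.08. Cdkn1a and Gadd45a were those 2. Without both libraries numbered 3, and likewise without aged mouse 5, only Cdkn1a was higher, and without aged mouse 5 Cdkn1b and Gadd45b were lower, against 1.32% of all genes called lower without it. In order of aged level the members ran Ccng1, Gadd45a, Cdkn1a, Mdm2, Cdkn2c, Cdkn1b, Sesn1, Gadd45b, Cdkn2b and Cdkn2a. Cdkn1a and Mdm2 were within 1 SD of each other in this order, as were the neighbors from Cdkn2c to Gadd45b. In young muscle the order was Ccng1, Gadd45a, Mdm2, Gadd45b, Cdkn1b, Cdkn2c, Sesn1, Cdkn1a, Cdkn2b and Cdkn2a, and the neighbors Mdm2 and Gadd45b, Gadd45b and Cdkn1b, and Sesn1 and Cdkn1a were within 1 SD of each other.

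**Figure D3:**
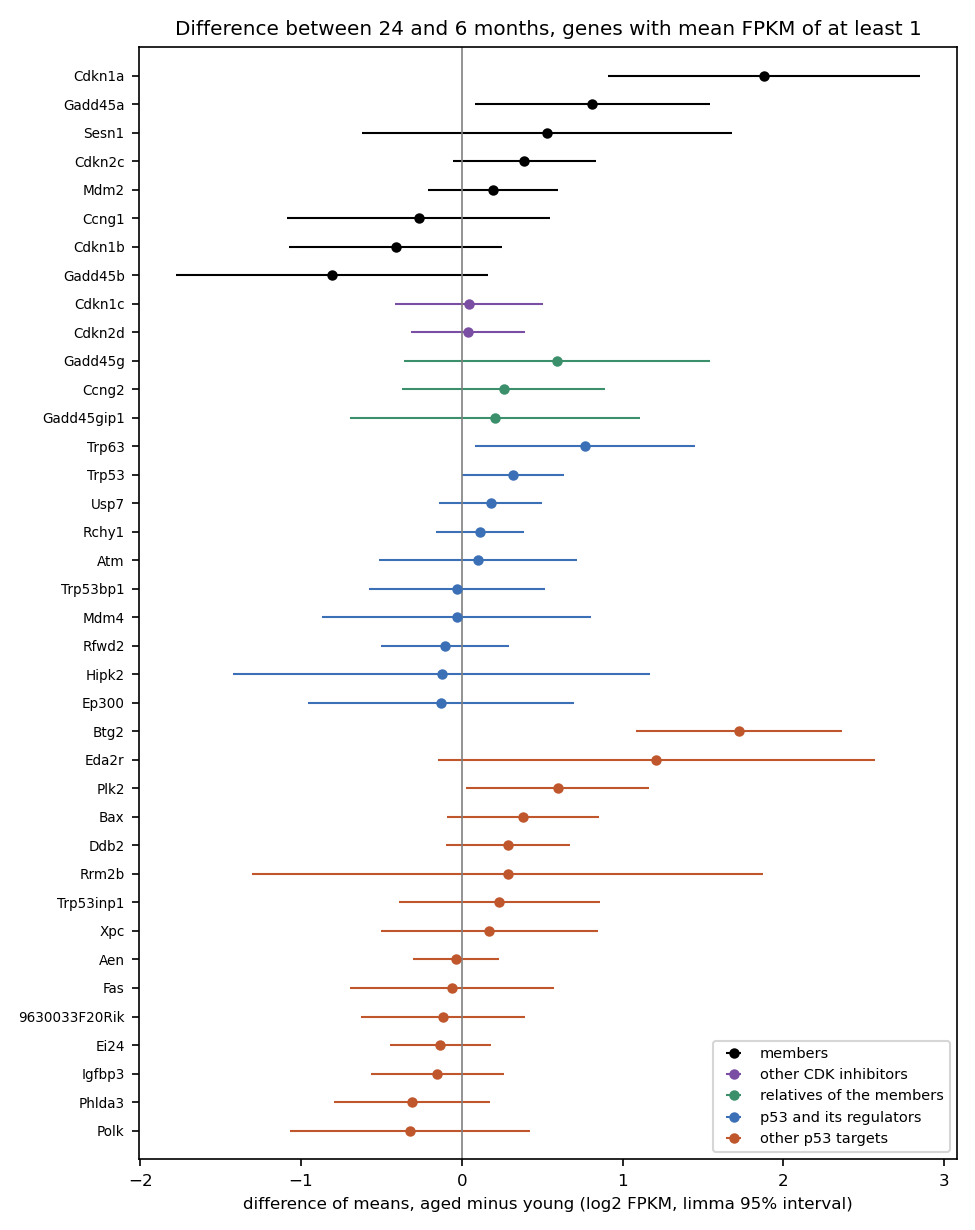
Difference of mean log2 FPKM, aged minus young, with limma 95% intervals, for members with a mean FPKM of at least 1 (black) and for 4 lists of other CDK inhibitors, related genes, p53 regulators and p53 targets (colors). Cdkn1a at 1.88 and Btg2 at 1.72 lie farthest to the right, and most of the other intervals span 0.

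Among 14 genes of p53 and its regulators, 10 were above 0, 2 were higher and 0 lower by the exact permutation test, against 6.79% and 1.25% of all genes, with a median difference of 0.04. Beside Trp53 the other one was Trp63, the p53 relative of epithelia, which measured 1.73, 1.87, 1.64, 1.64 and 1.80 in young and 2.51, 2.53, 1.36, 2.77 and 3.33 in aged mice 1 to 5. All aged libraries but that of mouse 3 were above the young ones, and the difference was 0.76 (exact permutation p = 0.0476, limma adjusted p = 1.00). Trp63 alone passed without both libraries numbered 3, and Trp53 alone without aged mouse 5.

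Of 27 other p53 targets, 21 were above 0, 1 was higher and 0 lower, no larger a share than the 6.79% of all genes called higher, with a median difference of 0.23. Btg2, an antiproliferative gene that joins the mRNA deadenylase complex, measured 1.13, 1.53, 1.97, 1.69 and 2.16 in young and 3.55, 2.79, 4.23, 3.43 and 3.08 in aged mice 1 to 5. The groups did not overlap, and the difference was 1.72 (limma SE 0.29, exact permutation p = 0.00794, limma adjusted p = 0.272). Without both libraries numbered 3, Eda2r, a receptor of the TNF family, at 1.54, and Bax, at 0.46, passed beside Btg2 (exact permutation p = 0.0286 each, the smallest that 4 against 4 can give), and without aged mouse 5 the damage-recognition gene Ddb2 did, at 0.36 (exact permutation p = 0.0397). All genes called higher were 8.41% and 7.24% under those settings. With all libraries the cell death gene Bax differed by 0.38 (exact permutation p = 0.103), with aged higher in 5 of 5 pairs, and Bbc3, near the floor, by 0.23 (exact permutation p = 0.206).

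The cell cycle genes that CDK inhibitors act on were mostly near the floor. Of 12 cyclins and CDKs, 8 were above 0 and 4 had a mean FPKM of at least 1, and of these 4 Cdk4 alone passed the exact test with all libraries, which called 6.79% of all genes higher. Cdk4, a kinase bound by the INK4 proteins, had 3.70, 3.91, 4.00, 3.71 and 3.51 in young and 3.93, 4.01, 4.24, 4.02 and 4.01 in aged mice 1 to 5. The groups overlapped only through young mouse 3, and the difference was 0.28 (exact permutation p = 0.0159, limma adjusted p = 1.00). Cdk2, a main target of p21, was listed at 0 in every young library and at 0.03 to 0.47 in the aged ones. It was above 0 only through the aged libraries and just above an FPKM of 1 there, so no change is stated. Of 13 Rb and E2F genes, 8 were above 0 and 0 were higher. E2f6, a repressor of E2F sites, was lower, by -0.18 (exact permutation p = 0.0238), against 1.25% of all genes called lower. It was not called lower without both libraries numbered 3. Of 17 genes of S phase and mitosis, 6 were listed at 0 in all libraries, Mki67, Plk1 and Cdc20 among them. Of the 5 with a mean FPKM of at least 1, 0 passed the exact test with all libraries. Pcna, the sliding clamp of replication, passed without both libraries numbered 3, at 0.40 (exact permutation p = 0.0286), and the cyclin Ccnd1 without aged mouse 5, at 1.01 (exact permutation p = 0.0238). Mcm4, a helicase subunit, was at 0 to 0.02 in young and 0.10 to 0.59 in aged libraries, too near the floor to state a change.

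Of 11 genes that respond to denervation, 7 were above 0 and 1 was higher, against 6.79% of all genes. Chrna1, a subunit of the muscle acetylcholine receptor, measured 0.45, 0.86, 0.39, 0.84 and 1.11 in young and 1.66, 1.90, 2.42, 2.43 and 1.90 in aged mice 1 to 5. The groups did not overlap, and the difference was 1.33 (limma SE 0.21, exact permutation p = 0.00794, limma adjusted p = 0.222). Myog differed by 0.56 (exact permutation p = 0.206). Of 11 factors secreted by senescent cells, 6 were listed at 0 throughout, Il6, Tnf and Il1b among them, and 0 of the other 5 passed the exact test with all libraries. Ccl2, Ccl7 and Mmp3 were at 0 in all young libraries and above 0 in 3 aged ones each (exact permutation p = 0.167). They were above 0 only through aged libraries and at 0 in aged mouse 5.

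Over the 10 libraries, the genes whose pattern was most like that of Cdkn1a were Lnx1 (Pearson r 0.971, Spearman rho 0.939), Nol10 (0.941 and 0.915), Maff (0.941 and 0.976), Slc15a4 (0.936 and 0.855) and Myl12a (0.933 and 0.915), of 10160 genes compared. After each group was centered on its own mean, r was 0.914, 0.819, 0.819, 0.866 and 0.789. Lnx1 encodes a ubiquitin ligase, Maff a small Maf transcription factor and Myl12a a regulatory myosin light chain. Lnx1 was near the floor of the table, at 0 to 0.51 in young and 0.72 to 1.15 in aged libraries. In Maff every aged library, at 1.27 to 2.42, was above every young one, at 0 to 0.96, as in 1.78% of all genes. Maff was picked by its likeness to Cdkn1a, whose groups did not overlap, so this is no separate result. All these values come from the same libraries, so differences between libraries enter both genes.

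Among the members, Gadd45a came closest to Cdkn1a, with r of 0.898 (rho 0.818), rank 16 in the table, and 0.849 after centering. Aged mice 4 and 5 were highest in Gadd45a and young mice 1 and 4 lowest in both genes. Without the 2 libraries farthest from the median of Cdkn1a, aged 5 and young 4, r was 0.773. Sesn1 had r of 0.600, which rested on aged mouse 5 and was -0.13 without it. For Gadd45b r was -0.17 with all libraries and -0.89 without aged mouse 5. Cdkn1b and Ccng1, both lowest in aged mouse 3, had r of 0.801 with each other.

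**Figure D4:**
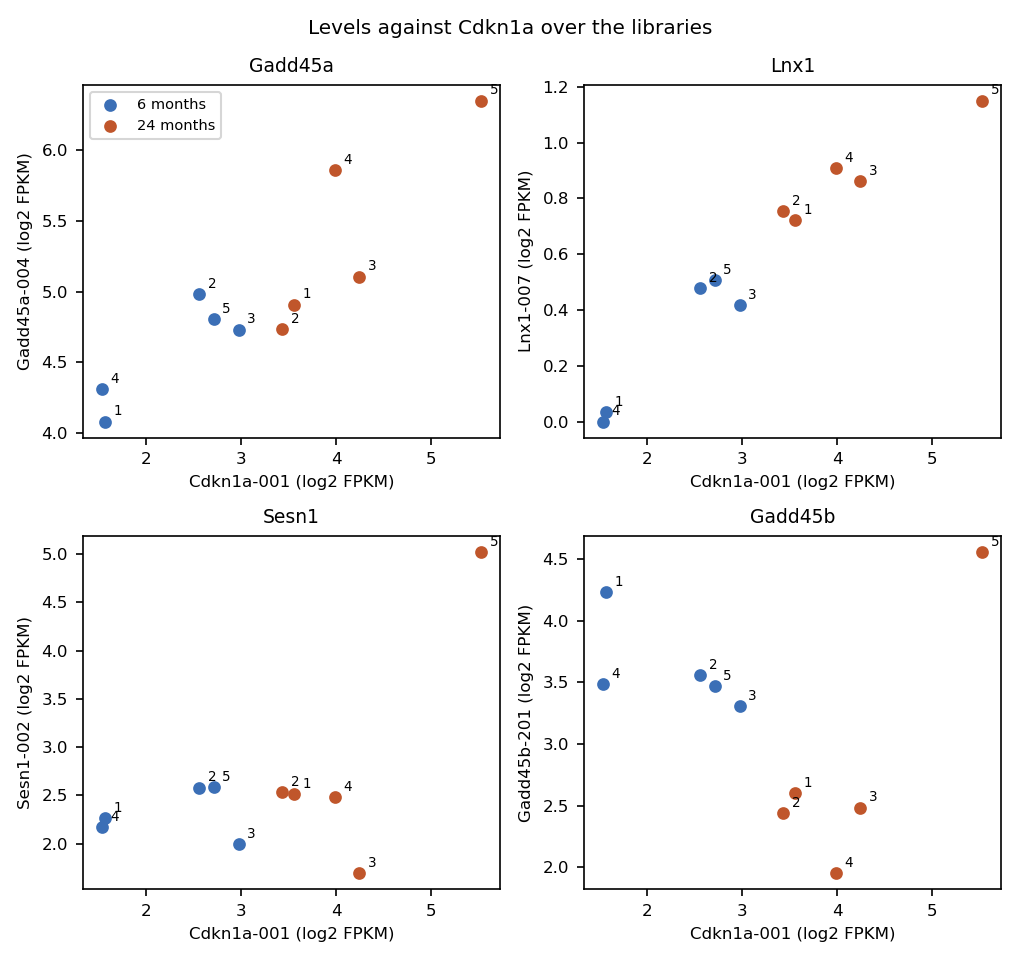
Levels of Gadd45a, Lnx1, Sesn1 and Gadd45b (y axes, log2 FPKM) against Cdkn1a (x axes, log2 FPKM), with 1 point for each library, numbered, blue for 6 and orange for 24 months. Gadd45a and Lnx1 climb with Cdkn1a in both groups, while in Sesn1 and Gadd45b aged mouse 5 lies apart from the other aged libraries. Lnx1 is near the floor, at 0 to 1.15.

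Markers of other cells were read beside these values. The 6 macrophage markers summed to 2.06 to 3.83 in young and 3.32 to 5.63 in aged libraries on the log2(FPKM + 1) scale (exact permutation p = 0.0317). Of the 6, Emr1, which encodes the macrophage antigen F4/80, and Cd14 were above 0 only in aged libraries, 1 and 2 of them. Cd68, above 0 in 1 young and all 5 aged libraries, passed the exact test (permutation p = 0.0159) but not without both libraries numbered 3, in a table with 6.79% of genes called higher. The macrophage sums were 2.86, 3.83, 3.26, 2.58 and 2.06 in young and 3.43, 3.32, 5.63, 5.28 and 3.92 in aged mice 1 to 5. Over the 10 libraries the macrophage sum and Cdkn1a had r of 0.621. Of the 6 lymphocyte markers, Cd3e was at 0 throughout, and the sum was 0 in all young libraries and 0 to 3.62 in aged ones. The 4 Schwann cell markers summed to 4.42 to 7.10 in young and 5.16 to 7.84 in aged libraries (exact permutation p = 0.270), and 0 of them passed the exact test alone. The 5 fibroblast markers summed to 7.36 to 8.10 in young and 6.99 to 8.09 in aged libraries (exact permutation p = 0.929). Their median difference was -0.78: Col1a1 differed by -1.12 (exact permutation p = 0.0714), Col3a1 by -1.03 (p = 0.0317, exact), Col1a2 by -0.78, Dcn by 0.10 and Pdgfra by 0.06. Col3a1 passed the exact test with all libraries, which called 1.25% of all genes lower. It did not pass without both libraries numbered 3 or without aged mouse 5. Of the 6 fiber markers Myh4 was lower, by -0.27 (exact permutation p = 0.0238), against the same 1.25% of all genes. Its limma 95% interval was -0.58 to 0.04. No endothelial, adipocyte, satellite cell or red blood cell marker passed the exact test in either direction, and the satellite cell genes Pax7 and Myf5 were at 0 in all libraries. The part of these cells in the differences of Cdkn1a, Gadd45a, Btg2 and Chrna1 was not tested.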

How the data were processed

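The RNA sequencing of gastrocnemius from 5 young and 5 aged mice was used. The authors mapped poly-A reads to mm10 with TopHat2 and Bowtie2, computed FPKM and deposited log2 values per transcript for each library, unpooled, with an FPKM under 1 as 0. The counting program is not given in the sources used here. The methods describe RefSeq genes, while rows carry Ensembl and Vega transcript names. Gene positions are RefSeq's on GRCm38.p6 (mm10).

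The members and lists were chosen with earlier results of these data known. A gene's row is that of the highest mean over all libraries. limma 3.58.1 (R 4.3.3) modelled the 38059 transcripts whose FPKM averaged 1 or more; p-values were adjusted over all of them (Benjamini-Hochberg, threshold 0.05), and the fit was tested on simulated data. For each single gene, group labels were permuted exactly, two-sided. Means and differences are of log2 FPKM, and values at 0 stand for an FPKM under 1, so differences of genes near 0 are understated. Overlapping transcripts share reads.

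Genes named beside the members are Trp53, Mdm4, Cdkn1c and Cdkn2d, up to 4 genes of each list with an exact p under 0.05 and the largest difference, and the 5 genes most like Cdkn1a. Relatives, paralogs, markers, genes listed at 0 and a few genes that did not pass were named after their values were seen. The list of relatives (Gadd45g, Gadd45gip1, Sesn2, Sesn3 and Ccng2) had 0 of 5 higher and 0 lower. Some genes of the lists are not reported here and were left out of the list counts and marker sums.

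Same-numbered libraries of the 2 ages come from different mice. Their deviations from the group means correlated at 0.131, 0.332, 0.695, 0.390 and 0.208 for numbers 1 to 5, against a mean of -0.04 for other combinations, so the pairing comes from the data and a paired fit was run beside the unpaired one. Depths and reads were recovered from the whole-read steps of the values (within 0.01 of a read) and only describe precision; no count test was run. Read numbers cover counting error only. The recovered lengths of the Cdkn1a rows, Gadd45b and Mdm2-001, among others, matched no reference transcript. Promoters were 250 bases before RefSeq starts. Alternatives covered pseudocounts of 1 and 0.1, median of ratios and quantile scaling, no filter and a mean FPKM of at least 5, trend and robust limma, the equal-variance test of the study with a 2-fold threshold, summed FPKM, other transcript rows and libraries left out; the other rows and the list counts with libraries left out were added after seeing the data.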

Additional observations from a re-analysis of the deposited data

Results flagged for a closer look

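Dixon's criterion was applied to the 5 young and the 5 aged values of 26 genes, 49 groups in all with any value above 0, and 8 groups had a library far from the other 4. In 2 of the 8 the other 4 libraries were at 0, where any value above 0 meets the criterion, which leaves 6. Chance gives about 1 in 20 groups. Among the members, Sesn1 was 5.02 in aged mouse 5 against 1.70 to 2.53 in the other aged libraries, and Gadd45b in the same mouse was 4.56 against 1.95 to 2.60. Gadd45b was also high in young mouse 1, at 4.23 against 3.31 to 3.56. Mdm2 was low in young mouse 3, at 3.41 against 3.77 to 3.91. Cdkn2b was 0.16 in aged mouse 1 and 0 in the other aged libraries.

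Of the other named genes, Trp53 was low in young mouse 5, at 1.77 against 2.05 to 2.15, Cdk4 was high in aged mouse 3, at 4.24 against 3.93 to 4.02, and Mcm4 was 0.022 in young mouse 4 and 0 in the other young libraries.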

How the results depend on the processing

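The Cdkn1a difference kept its direction under all 19 alternatives and its side of the threshold under 17. It was 1.88 with the replicate block (exact paired permutation p = 0.0625) and 1.32 on row Cdkn1a-003 (exact permutation p = 0.0556). Gadd45a kept its direction under all 21 and lost the exact call under 15: at 0.77 with median-of-ratios scaling, 0.76 with quantile scaling, 0.81 with the replicate block (exact paired permutation p = 0.125), 0.92 without both libraries numbered 3, 0.79 with summed FPKM, and 0.81, 0.66 and 0.70 on rows Gadd45a-005, Gadd45a-003 and Gadd45a-002. With 1 library left out it ranged from 0.57 to 0.98 (exact permutation p = 0.0159 to 0.127). Leaving out 1 library gave -0.59 to -0.14 for Cdkn1b, 0.30 to 0.51 for Cdkn2c, -1.24 to -0.59 for Gadd45b, -0.43 to 0.09 for Ccng1 and -0.01 to 0.82 for Sesn1, with Ccng1 turning only without aged 3 (0.094) and Sesn1 only without aged 5 (-0.014). Mdm2 turned on 5 other rows, to -0.20, -0.38, -0.26, -0.28 and -0.038, 5 of the 6 rows listed at 0 in aged 3; it was 0.06 on the other, 0.02 with summed FPKM and 0.09 to 0.28 with 1 library left out. The cause was not tested.

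The count of transcripts that limma called higher was 3, and it was 5 with log2(FPKM + 1), 0 with median-of-ratios scaling, with quantile scaling and with the replicate block, 11 without both libraries numbered 3, 0 to 23 with 1 library left out (23 without aged 3, 11 without aged 5) and 218 with a 2-fold threshold and the unadjusted equal-variance test, which called 35 lower against 0. The members called higher numbered 1 rather than 2 without both libraries numbered 3 and without aged 5, and the other p53 targets 3 and 2 rather than 1, while all genes called higher went from 6.79% to 8.41% and 7.24%. Changes below an FPKM of 1, which covers Cdkn2a and most of Cdkn2b, were not detectable. The smallest exact p allowed by 5 against 5, 0.00794, limits every single-gene call. The paired test cannot go under 0.0625 and so could add no call; limma with the block gave Cdkn1a an adjusted p of 0.422.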

Other observations

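Sesn1 was not the gene that set aged mouse 5 farthest apart. Over 10161 genes with a mean FPKM of at least 1, this library was above the highest of the other 9 by over 1 for 100 genes and by over 2 for 10, and below the lowest by over 1 for 46. Aged mouse 3 was above the others by over 1 for 279 genes and aged mouse 4 for 57, and the remaining 7 libraries for 0 to 28. Syt8 led in aged mouse 5, at 11.87 against a listing at 0 in all other libraries, Acss1 and Acot2 followed with gaps of 3.04 and 2.47, and Sesn1 was next with 2.43. Cdkn1a ranked 40 with 1.28.

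The following genes were chosen from that ranking after their values were seen. Trim63 and Fbxo32, the muscle ubiquitin ligases MuRF1 and atrogin-1, were 10.44 and 8.46 in aged mouse 5, above the highest other library by 1.98 and 1.96. Pdk4, a pyruvate dehydrogenase kinase, was above the highest other library by 1.5, and Gabarapl1, an autophagy gene, by 1.48. Eif4ebp1, the mTORC1 target that restrains translation, was above it by 1.82, and Pnpla2, the first lipase of fat breakdown, by 1.75. Of the 8 members with a mean FPKM of at least 1, 7 were highest in that mouse, as were 22.7% of all 10161 genes, among them Gadd45a by 0.49, Gadd45b by 0.33 and Mdm2, Cdkn2c and Cdkn1b by 0.07 to 0.16; Ccng1 was not. The labels name no treatment that sets aged mouse 5 apart, and with 1 animal these values have no replicate.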
